A study of Mus musculus with 24 samples.

Results

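The first step of granule neuron culture, DIV3 against DIV1, was followed through trimethylated lysine 27 of histone H3 (H3K27me3) in cultured mouse cerebellar granule neurons (CGNs). DIV counts the days in vitro. The members were the 6 peak lists that the labels assign to DIV3 (3 libraries) or DIV1 (3 libraries), out of 24 lists in 8 groups. The mark was mapped by CUT&RUN, in which an antibody guides a nuclease to the marked chromatin and the released fragments are sequenced. DIV3 neurons had received 1 µM cytosine arabinoside (AraC) on DIV2, whereas DIV1 neurons were collected before that addition. The day and the AraC addition therefore cannot be told apart. Both groups came from outbred CD-1 IGS mouse pups, received no inhibitor of the enzymes that write or remove the mark, and were grown in the same serum and B27 medium. A replicate was a culture from pooled litters, so no value belongs to 1 animal. The DIV5 and DIV7 libraries of the same time course, 3 each, entered the statistical fit and are given where they follow a DIV3 or DIV1 value.

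H3K27me3 is written by the EZH1 or EZH2 subunit of Polycomb repressive complex 2 (PRC2), is bound by Polycomb repressive complex 1 (PRC1), and is removed by the KDM6 demethylases. It marks the CpG-rich promoters of genes that a cell type keeps silent, developmental regulators among them. Granule neuron precursors divide in the early postnatal cerebellum and leave the cell cycle to become CGNs, which migrate, extend axons and later receive synapses. AraC blocks DNA synthesis and is used to remove dividing cells from such cultures.

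A few regions were called as different between the days, none of them when the DIV5 and DIV7 libraries were left out of the fit. Sequences from within some of these regions are shown, so that the regions can be recognised and their CpG content seen. Each is a stretch of 300 bases within the part that all 3 libraries of the marked day covered, taken from the GRCm38 (mm10) genome, with every CG dinucleotide in capitals. The regions marked at DIV1 and lower at DIV3 are an intergenic stretch at chr4:142475036-142475335 (plus strand, 2 CG), an intron of Tmem108 at chr9:103759524-103759823 (minus strand, 8 CG), an exon and intron of Hsd17b1 at chr11:101079173-101079472 (plus strand, 9 CG) and an intron of Pard6b at chr2:168081958-168082257 (plus strand, 11 CG).
Chromosome 4 intergenic region: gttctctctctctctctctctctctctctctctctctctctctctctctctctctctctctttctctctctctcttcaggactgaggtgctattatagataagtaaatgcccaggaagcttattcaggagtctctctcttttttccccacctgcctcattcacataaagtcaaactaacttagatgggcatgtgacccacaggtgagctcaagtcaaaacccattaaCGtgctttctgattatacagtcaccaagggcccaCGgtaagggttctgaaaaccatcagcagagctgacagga
Tmem108: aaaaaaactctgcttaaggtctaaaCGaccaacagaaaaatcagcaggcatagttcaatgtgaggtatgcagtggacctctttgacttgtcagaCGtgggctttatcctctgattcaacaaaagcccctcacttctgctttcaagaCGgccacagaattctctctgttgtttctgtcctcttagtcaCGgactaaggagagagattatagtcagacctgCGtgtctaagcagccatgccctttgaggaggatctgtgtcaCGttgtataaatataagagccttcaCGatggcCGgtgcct
Hsd17b1: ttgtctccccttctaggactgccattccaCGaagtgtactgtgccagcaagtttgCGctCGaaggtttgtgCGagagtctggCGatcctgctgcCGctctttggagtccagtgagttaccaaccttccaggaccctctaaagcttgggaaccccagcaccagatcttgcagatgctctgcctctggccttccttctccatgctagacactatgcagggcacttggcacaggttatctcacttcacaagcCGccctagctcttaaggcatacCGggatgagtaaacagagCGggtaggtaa
Pard6b: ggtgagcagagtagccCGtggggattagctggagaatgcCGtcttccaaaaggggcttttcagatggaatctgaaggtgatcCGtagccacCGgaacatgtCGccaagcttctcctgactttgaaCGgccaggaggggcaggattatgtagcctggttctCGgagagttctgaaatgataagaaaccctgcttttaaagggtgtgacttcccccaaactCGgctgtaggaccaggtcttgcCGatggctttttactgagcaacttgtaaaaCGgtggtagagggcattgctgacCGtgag

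The region marked at DIV3 is an exon and intron of Parva at chr7:112427978-112428277 (plus strand, 18 CG), shown because its promoter gained coverage. It lies off the middle of the shared part, clear of the untranslated part of the exon, and is therefore not set against the peak middles below.
Parva: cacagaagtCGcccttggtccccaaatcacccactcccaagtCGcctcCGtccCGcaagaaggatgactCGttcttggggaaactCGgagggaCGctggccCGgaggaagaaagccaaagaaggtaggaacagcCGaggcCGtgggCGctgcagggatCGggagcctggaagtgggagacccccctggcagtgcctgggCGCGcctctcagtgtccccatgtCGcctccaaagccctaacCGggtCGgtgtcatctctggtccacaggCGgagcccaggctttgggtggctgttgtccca

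CG was searched as the letters CG, which read the same on both strands. Of 20993 peak middles of 300 bases in the 6 libraries, 96.0% held at least 1 CG, with a median of 9. The printed Pard6b stretch lay above this median, Hsd17b1 lay at it, and Tmem108 and the chromosome 4 stretch lay below it. The chromosome 4 stretch opens with a long run of alternating t and c, and 35.3% of it is repeat masked in the genome.

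The amount called did not differ between the days beyond the spread of the libraries. DIV3 lists held 4740, 12245 and 22832 peaks in replicates 1, 2 and 3, against 5522, 16559 and 13279 peaks in DIV1 lists. Peaks covered 3.69 ± 2.74 Mb at DIV3 and 3.53 ± 1.99 Mb at DIV1 (SD, n = 3 each; exact permutation p = 1). Replicate 1 stood apart on both days with the shortest list, 1.11 Mb at DIV3 and 1.33 Mb at DIV1, and its file came from another sequencing lane than replicates 2 and 3. Promoter windows, 3 kb on either side of the 5' end of 21938 protein-coding genes, held 41.7% ± 5.63 of the covered length at DIV3 and 42.2% ± 0.619 at DIV1. Of 15 such whole-library measures the smallest exact two-sided permutation p was 0.2, where 3 against 3 libraries can reach 0.1 at best, and every adjusted p was 1. Whole lists overlapped to a like extent within and between days. The mean Jaccard overlap of lists at equal length was 22.7% for 6 pairs of the same day, 23.0% for 3 pairs of the same replicate number on different days, and 21.7% for the 6 other pairs. Read depth is unknown. Coverage of 0% means that no peak passed the caller's threshold, and the mark may still be present at a lower level. In such bulk lists, fewer marked cells and less mark per cell cannot be told apart.

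**Figure D1:**
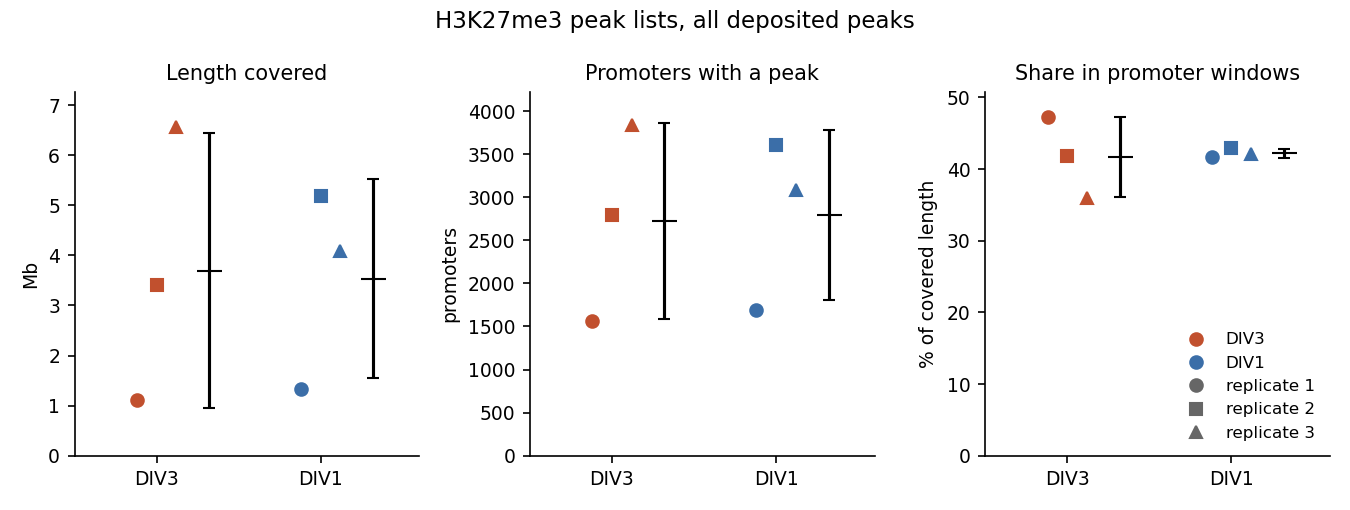
Length covered in Mb, promoters with a peak, and share of covered length in promoter windows in % for each DIV3 and DIV1 library (symbols give the replicate number; bars give mean and SD, n = 3 each). The DIV3 libraries run from 1.11 to 6.57 Mb and enclose the DIV1 libraries at 1.33 to 5.19 Mb.

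The labelled cell type was checked against promoters that granule neurons keep active. Of 10 granule neuron genes, among them Zic1, Zic2, Pax6 and Rbfox3, 1 had a peak in any DIV3 library (Reln, in 1) and 2 had one in any DIV1 library (Neurod1 and Cbln1, in 1 each). No granule neuron gene had a peak in all 3 libraries of either day. In single libraries 7.10, 12.7 and 17.5% of all promoters had a peak at DIV3, and 7.71, 16.4 and 14.0% at DIV1. Over both days, 5229 of 21938 promoters had a peak in any of the 6 libraries. With 10 genes, the granule neuron counts cannot be told from these shares and say little about the cell type. Of 27 genes that mark other cells of the culture, 8 had a peak at DIV3 and 7 at DIV1, and their summed promoter coverage was 11.1, 52.5 and 69.1% at DIV3, against 17.7, 78.7 and 51.7% at DIV1, which overlap. None of the 4 microglial genes had a peak on either day. Gfap, Aqp4, Olig2 and Pecam1 also had none. Cldn5, the tight junction gene of vessel walls, carried most of the sum in replicates 2 and 3 of both days, with 4.83, 34.3 and 36.2% at DIV3 and 6.78, 42.2 and 32% at DIV1.

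To ask which promoters changed over the first step, the percentage of each 6 kb window covered by peaks, called coverage here, was compared at equal length, meaning that every list was limited to its strongest peaks up to the 1.11 Mb of the shortest list. Of 1794 promoters with coverage in at least 3 of the 12 time course libraries, 1 gained coverage at DIV3 (0.0557%) and 5 lost it (0.279%) by limma with Benjamini-Hochberg adjustment. At an unadjusted p under 0.05, 53 were higher and 78 lower. The median change over all promoters tested was 0.07 percentage points, and the 95% interval of a single promoter extended 6.16 points either side at the median, so at a typical promoter a smaller change could not be told from 0. The groups did not overlap at 48 promoters with DIV3 above DIV1 (2.68%) and at 49 with DIV3 below (2.73%), similar numbers in both directions. None of the 6 calls was made when the DIV5 and DIV7 libraries were left out of the fit (adjusted p = 0.421 to 0.524). Those libraries share the estimate of the spread, so later values at called promoters and bins are not independent of the calls.

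Frzb, a secreted antagonist of Wnt ligands (chromosome 2, 5' end at 80447625), was the promoter that gained coverage. Its coverage at equal length was 9.77, 9.07 and 13.2% at DIV3 and 0% in all 3 DIV1 libraries. The groups did not overlap, and the difference was 10.7 ± 1.55 points (SE; limma adjusted p = 0.0249). With all deposited peaks, however, DIV1 libraries had 5.47, 14.7 and 8.80% there, against the same 9.77, 9.07 and 13.2% at DIV3, so the groups overlapped and the adjusted p was 1. The Frzb peaks had a −log10 p of 5.41, 5.64 and 6.06 at DIV3 and 5.003, 5.46 and 4.83 at DIV1, where the weakest peaks kept at equal length had 5.003, 5.59 and 5.45. Each DIV1 peak thus fell below the limit of its own list, that of replicate 1 by less than 0.001. Frzb coverage at equal length was lower again on the later days, with means of 0.517% at DIV5 and 1.96% at DIV7. The call was lost without any 1 DIV1 library or without DIV3 replicate 2, and over the 6 omissions the adjusted p lay between 0.0477 and 0.0801.

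The 5 promoters that lost coverage lie in 3 regions. The widest change was at Hsd17b1, which encodes an enzyme that converts estrone to estradiol, and at its neighbour Coasy, which encodes the enzyme of the last steps of coenzyme A synthesis, on chromosome 11 (5' ends at 101078411 and 101082565). The windows overlap and share the peak. Hsd17b1 had 9.77, 0 and 0% at DIV3, against 22.7, 27 and 28% at DIV1. No DIV3 library reached the DIV1 range, and the difference was -22.6 ± 2.97 points (SE; limma adjusted p = 0.0180). Coasy had 2.83, 0 and 0% at DIV3 and 7.78, 9.38 and 8.73% at DIV1 (limma adjusted p = 0.0276). With all peaks the separation closed at Hsd17b1, where DIV3 had 9.77, 19.9 and 24.6% and DIV1 had 22.7, 28.7 and 28%. The DIV3 peaks of replicates 2 and 3 there were 1195 and 1125 bp long, almost as wide as the DIV1 peaks of 1309 to 1677 bp, but ranked below the strongest 1.11 Mb of their lists. With peaks ranked by fold enrichment instead of −log10 p, the difference was -4.32 points at Hsd17b1 and -1.65 points at Coasy (limma adjusted p = 1 for each). The Hsd17b1 call was lost without DIV1 replicate 2, DIV1 replicate 3 or DIV3 replicate 2 (adjusted p = 0.00512 to 0.0801 over the 6 omissions), and the Coasy call stood without DIV3 replicate 1 and under no other omission (0.0453 to 0.184).

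Tmem108, a membrane protein of neurons (chromosome 9, 5' end at 103761837), had no coverage at DIV3 at equal length, against 10.0, 14.4 and 19.0% at DIV1, a difference of -14.5 ± 1.94 points (SE; limma adjusted p = 0.0180). With all peaks it had 0, 5.97 and 9.27% at DIV3 and 10.0, 23.3 and 23.5% at DIV1. The groups did not overlap in either list, although with all peaks the adjusted p was 0.379. Its later coverage was 0% in all 6 DIV5 and DIV7 libraries at equal length, and with all peaks it was 6.2% in DIV5 replicate 1 and 0% in the other 5. Tmem200a, which encodes a membrane protein, and the gene model Gm9767 share a window on chromosome 10 (5' ends at 26079052 and 26078255), with 0% in the DIV3 libraries and 8.25, 18.6 and 17.9% at DIV1 (difference -14.9 ± 2.34 points, SE; limma adjusted p = 0.0276). With all peaks DIV3 replicate 3 had 20.7% at Tmem200a, above every DIV1 library, and the groups overlapped. Of these calls, Tmem108 was lost without DIV3 replicate 2 (adjusted p = 0.0776) and Tmem200a without any 1 DIV3 library (0.0545 to 0.128). Without a DIV1 library both fell below the minimum of 3 covered libraries and were not tested.

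The same comparison with all deposited peaks, in which the amount called is part of the value, picked other promoters. Of 3584 promoters tested, 1 gained coverage (0.0279%) and 7 lost it (0.195%), and none of these 8 was among the 6 called at equal length. Before adjustment 64 were higher and 155 lower at DIV3. The groups did not overlap at 68 promoters with DIV3 above (1.9%) and at 3.24% of the promoters with DIV3 below. Among promoters without overlap, those lower at DIV3 thus outnumbered those higher, where equal length had given 48 above and 49 below. The number that lost coverage depended on 1 library, being 63 by limma without DIV1 replicate 1, the shortest list of that day. None of the 8 was called when the DIV5 and DIV7 libraries were left out of the fit (adjusted p = 1 for each).

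Parva, which encodes alpha-parvin, a partner of integrin-linked kinase at cell adhesions (chromosome 7, 5' end at 112427505), gained coverage. It had 15.5, 12 and 17.2% at DIV3 and 0% in all 3 DIV1 libraries, a difference of 14.9 ± 2.35 points (SE; limma adjusted p = 0.0390). The DIV3 peaks were 927, 722 and 1029 bp long with fold enrichments of 4.36, 4.13 and 3.95. Each library of DIV3 thus had 1 wide peak near the 5' end of the gene where DIV1 had none. The coverage was as high at DIV5, with 18.5, 13.6 and 19.5%, and lower at DIV7, with 4.45, 11.5 and 4.53%. At equal length the DIV3 replicate 3 peak was not kept, giving 15.5, 12 and 0% at DIV3 against 0% at DIV1 (adjusted p = 0.623). With all peaks the Parva call stood without DIV1 replicate 1 and under no other omission, and the adjusted p lay between 0.0321 and 0.355.

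Pard6b, a subunit of the PAR polarity complex (chromosome 2, 5' end at 168081004), had the largest of the called losses with all peaks. Its coverage was 4.1, 4.5 and 3.18% at DIV3 and 20.4, 14.9 and 15.7% at DIV1, a difference of -13.1 ± 1.56 points (SE; limma adjusted p = 0.0147). Each DIV3 library kept a short peak, and the window was at 0% in all 6 later libraries. The DIV1 peaks were 579 to 891 bp long at their widest, the DIV3 peaks 141 to 270 bp. The call was lost without DIV1 replicate 2, DIV1 replicate 3 or DIV3 replicate 2 (adjusted p = 0.00674 to 0.130).

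The remaining promoters that lost coverage had small values of like size in the DIV1 libraries. The shared window of Ccdc92, a coiled-coil protein, and Zfp664, a zinc finger protein, on chromosome 5 (5' ends at 124862424 and 124862691) had 0% in the DIV3 libraries and 8.75, 8.23 and 9.03% at DIV1 (limma adjusted p = 0.0147). Tmem151a on chromosome 19 (5' end at 5085531) had 0% in the DIV3 libraries and 7.60, 7.27 and 7.25% at DIV1 (0.0329). Dnm1, the dynamin of synaptic vesicle endocytosis, and Ciz1, a nuclear matrix protein, share a window on chromosome 2 (5' ends at 32353338 and 32352327) with 0, 0 and 2.55% at DIV3 and 8.15, 10.9 and 9.60% at DIV1 (0.0329). The longest stretch covered in all 3 DIV1 libraries was only 27 bp at Ccdc92, 158 bp at Tmem151a and 111 bp at Dnm1. At Ccdc92 the widest peak of DIV1 replicate 1 lay apart from the peaks of DIV1 replicates 2 and 3. In all of these regions every DIV3 library was below every DIV1 library, and 6 of the 7 promoters that lost coverage were at 0% in all 6 later libraries. The later libraries shared the estimate of the spread in the fit. These later zeros therefore entered the calls and do not bear them out separately. Zhx2, a transcriptional repressor (chromosome 15, 5' end at 57694665), had 0% in the DIV3 libraries and 7.05, 7.82 and 6.70% at DIV1 (limma adjusted p = 0.0338). The DIV1 peaks at Zhx2 did not lie on top of each other. Relative to the 5' end, with negative positions upstream, they were centred at -1808 bp in replicate 1, at -2700, -2193 and -1372 bp in replicate 2, and at -2767 and -991 bp in replicate 3, so the equal coverage did not come from 1 shared site. The calls at Ccdc92 and Zfp664 were lost without DIV3 replicate 2 (adjusted p = 0.0412 to 0.125 where tested). Dnm1 and Ciz1 were lost without DIV1 replicate 2, DIV1 replicate 3, DIV3 replicate 1 or DIV3 replicate 2 (0.0167 to 0.355). Tmem151a stood without DIV1 replicate 1 and under no other omission (0.0269 to 0.355), and Zhx2 was lost without any 1 DIV3 library (0.0941 to 0.235).

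**Figure D2:**
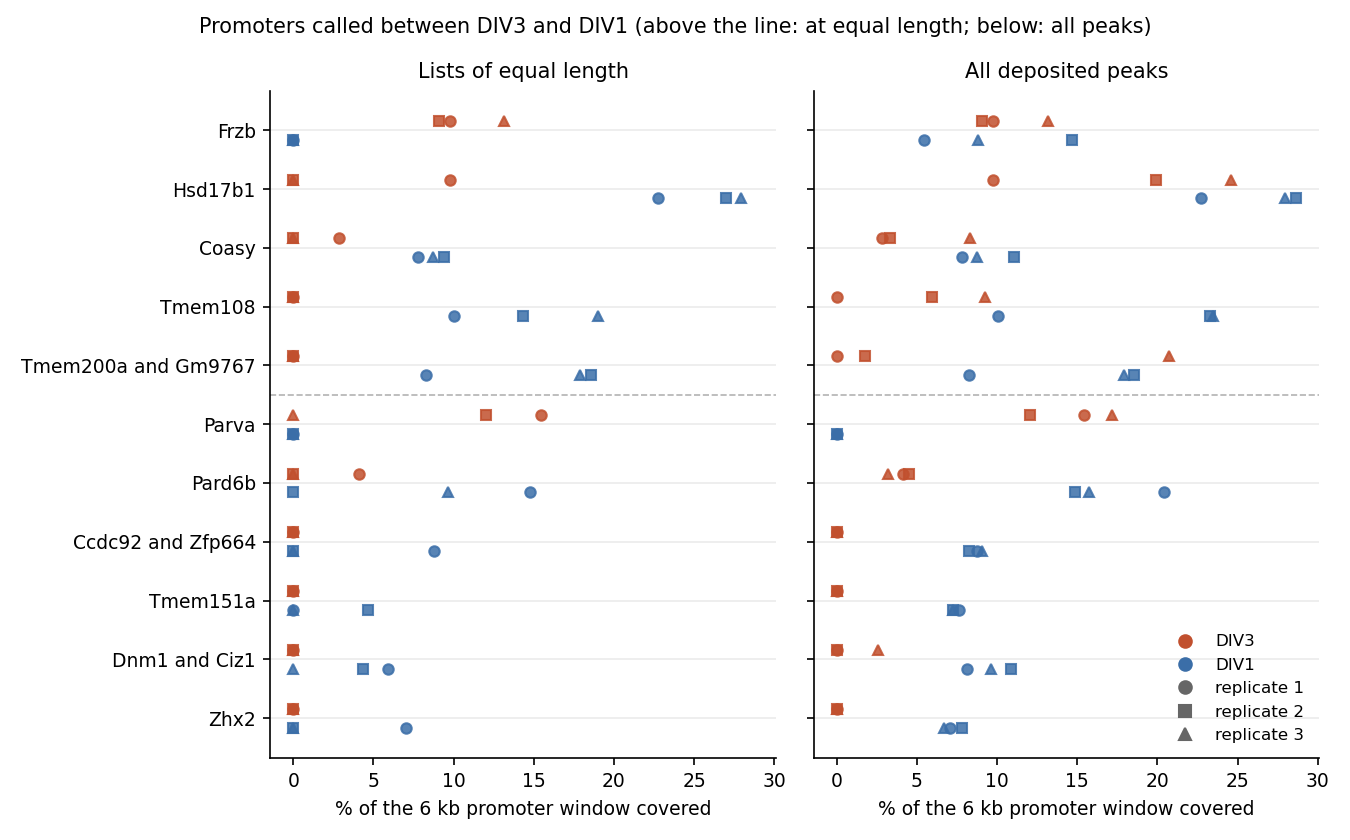
Coverage in % of the 6 kb promoter window for each DIV3 (upper points of a row) and DIV1 library (lower points) at the called promoters, at equal length (left) and with all deposited peaks (right); rows above the dashed line were called at equal length, rows below it with all peaks. The DIV1 points of Frzb move from 0 to between 5.47 and 14.7% once all peaks are used, whereas the Tmem108 groups stay apart in both panels.

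Median CpG content differed among these promoters as a description. All 21938 promoter windows had a median of 1.8 CG per 100 bp, the 3584 tested with all peaks had 2.2, those with DIV3 below DIV1 and no overlap had 2.85, and the 7 that lost coverage had 4.08. The 68 with DIV3 above had 2.27. At equal length the 49 promoters below and the 48 above stood at 2.22 and 2.18, next to 2.18 for those tested.

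Changes outside promoters were examined in 10 kb bins of the genome. At equal length 4785 bins were tested, of which 1 gained coverage (0.0209%) and 6 lost it (0.125%). The groups did not overlap in 2.42% of the bins with DIV3 above and in 142 with DIV3 below (2.97%). With all peaks 13346 bins were tested. None gained coverage (0%; limma, with 211 higher at an unadjusted p under 0.05) and 7 lost it (0.0525%; 387 lower at an unadjusted p under 0.05). There the groups did not overlap in 186 bins with DIV3 above (1.39%) and 272 with DIV3 below (2.04%). Without DIV1 replicate 1 the bins that lost coverage with all peaks numbered 124, and without DIV1 replicate 3 they numbered 1. A promoter window lay in 52.9% of the 272 bins with DIV3 below, in 37.6% of the 186 bins with DIV3 above and in 36.7% of the bins tested. At equal length the shares were closer, at 43.7% of the 142 bins with DIV3 below, 45.7% of those with DIV3 above and 45.2% of those tested.

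The smallest adjusted p of the comparison belonged to an intergenic bin on chromosome 4, the region whose sequence opens the first set printed above. At equal length it had 0% in the DIV3 libraries and 8.49, 7.65 and 9.71% at DIV1, a difference of -8.62 ± 0.54 points (SE; limma adjusted p = 0.000155). With all peaks it had 0, 0 and 1.52% at DIV3 and 8.49, 9.71 and 11.5% at DIV1 (adjusted p = 0.00223). Of the bins and promoters called, it was the one that was called in both lists. Its main DIV1 peaks were 849, 765 and 661 bp long with fold enrichments of 4.36, 4.35 and 4.20, and 467 bp were covered in all 3 DIV1 libraries. Later coverage was 0% in the DIV5 libraries and reached 0.53% in 1 DIV7 library. The nearest protein-coding 5' end, that of Kazn, a protein of cell junctions, lies 230600 bp away, and the nearest annotated gene of any kind is the processed transcript 6330411D24Rik at 123023 bp. The bin kept its call without any 1 of the 6 libraries, with an adjusted p of 0.000288 to 0.00225 at equal length and 0.00148 to 0.0334 with all peaks. When the DIV5 and DIV7 libraries were left out of the fit, neither it (adjusted p = 0.166 and 1) nor any other of these bins was called.

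The other bins that lost coverage at equal length were mostly within or beside genes. The bin of Tmem108 had 0% at DIV3 and 6.02, 6.51 and 7.73% at DIV1 (limma adjusted p = 0.000288). It was called without any 1 DIV3 library, each of which held 0%, and was not tested without a DIV1 library. With all peaks the Tmem108 bin was not called (limma adjusted p = 0.183). The bin at Rybp, which encodes a PRC1 subunit, had 0% at DIV3 and 3.59, 4.72 and 3.78% at DIV1 (0.0240), from a stretch 855 bp outside the gene that all 3 DIV1 libraries covered. With all peaks the Rybp groups overlapped. A bin within Rbfox3, which encodes the neuronal nuclear antigen NeuN, had 4.15, 0 and 0% at DIV3 and 7.39, 10.1 and 10.1% at DIV1 (0.0421), and was at 0% in all 6 later libraries at equal length. The bin is 93172 bp from the nearest protein-coding 5' end, whereas the Rbfox3 promoter itself had no peak in any of the 6 libraries. The remaining bins were those of Hsd17b1 and Tmem200a (0.0305 and 0.0496), and the Tmem200a bin was lost without any 1 DIV3 library (0.0781 to 0.120). The Rybp bin was lost without DIV3 replicate 2 (0.0232 to 0.0929 over the omissions), and the Rbfox3 and Hsd17b1 bins were lost without DIV1 replicate 2 or 3 or DIV3 replicate 2 or 3 (0.00124 to 0.111 and 0.00197 to 0.111).

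With all peaks, 5 of the 7 bins repeated the promoters of Ccdc92, Tmem151a, Pard6b, Zhx2 and Dnm1, with limma adjusted p-values of 0.00223 to 0.0154, and the chromosome 4 bin was the sixth. Of these 5, the Ccdc92 bin kept its call without any 1 DIV3 library and was not tested without a DIV1 library. The Pard6b bin was lost without DIV1 replicate 3 or DIV3 replicate 2, the Zhx2 bin without DIV3 replicate 2, and the Tmem151a and Dnm1 bins without DIV1 replicate 2, DIV1 replicate 3 or DIV3 replicate 2 (adjusted p = 0.00151 to 0.163 over the omissions tested for these 5). The last was an intergenic bin on chromosome 19, 4043 bp from the 5' end of Rfk, the riboflavin kinase gene. It had 2.83, 1.21 and 2.69% at DIV3 and 8.84, 7.71 and 8.18% at DIV1, a difference of -6 ± 0.79 points (SE; adjusted p = 0.0343). Unlike the chromosome 4 bin it kept coverage afterwards, with 4.76, 3.04 and 3.92% at DIV5. Its call was lost without DIV1 replicate 2 or 3 or DIV3 replicate 2 or 3 (0.0245 to 0.257). The single bin that gained coverage, at equal length, was that of Frzb, with 5.86, 5.44 and 7.89% at DIV3 and 0% at DIV1 (0.0240), lost without DIV3 replicate 2 (0.0509).

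**Figure D3:**
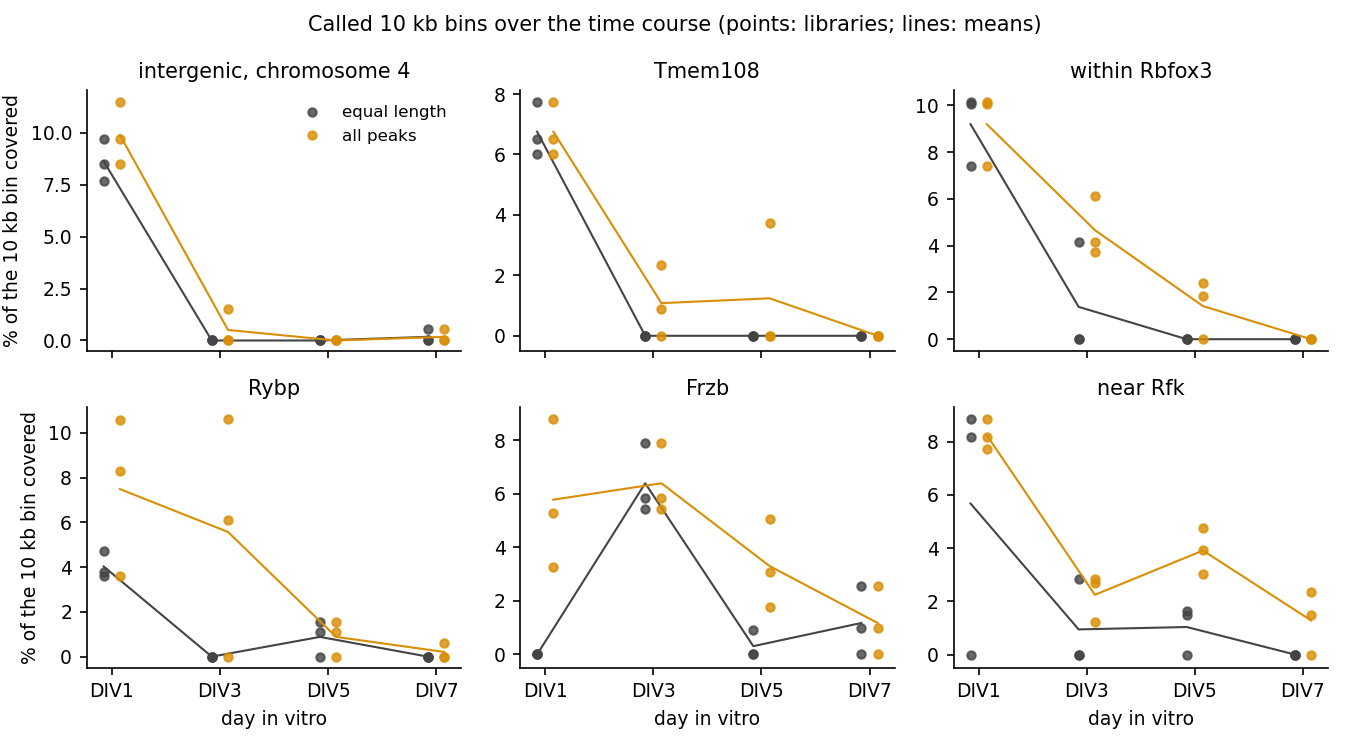
Coverage in % of 6 called 10 kb bins on DIV1, DIV3, DIV5 and DIV7 at equal length (grey) and with all peaks (orange); points are libraries, lines join the means of 3 libraries. The chromosome 4 bin stands at 7.65 to 11.5% at DIV1 and at or near 0 on the later days, whereas the Frzb bin is highest at DIV3 at equal length and overlaps DIV1 with all peaks.

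Presence of a peak gave a second view of the same lists. Among 5229 promoters with a peak in any of the 6 libraries, 905 had one in all 6, 29 had one in 3 of 3 DIV3 and 0 of 3 DIV1 libraries (0.555%), and 49 had one in 0 of 3 DIV3 and 3 of 3 DIV1 libraries (0.937%). These promoters were weakly covered. The mean coverage was 1.17 to 14.9% with a median of 4.97% for the 29 of DIV3 and 2.22 to 11.5% with a median of 4.74% for the 49 of DIV1, against medians of 13.8% at DIV3 and 14.6% at DIV1 for the 905. The peaks had a median −log10 q of 1.49 at the DIV3 promoters and 1.42 at the DIV1 promoters, and 10.8% and 7.18% of them reached 2. Presence was also counted anew with only the peaks that reached a −log10 q of 2. Then 3 promoters were marked in all DIV3 and no DIV1 libraries, and 1 in all DIV1 and no DIV3 libraries. These need not be among the 29 and 49, since a weak peak on the other day no longer counted.

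Parva had the highest mean coverage among the DIV3 promoters. Efs, a Src-binding adaptor, followed the same course, with 6, 10.4 and 9.13% at DIV3, 0% at DIV1 and 23.0, 18.3 and 15.5% at DIV5. Klf12, a transcriptional repressor, had 1.00, 5.13 and 15.1% at DIV3, 0% at DIV1 and 13.4, 15.2 and 18.6% at DIV5. Every DIV5 library of Efs was above every DIV3 library, while those of Klf12 overlapped. Plau, the urokinase plasminogen activator, had 3.10, 11.7 and 3.00% at DIV3, and Sh3pxd2b, an adaptor of podosomes, had 3.17, 5.08 and 3.70%. Apln, the peptide ligand apelin, had 6.20, 3.17 and 3.92% at DIV3 and 0% in every other time course library. Chosen after their values were seen, Elavl2, a neuronal RNA-binding protein, had 1.35, 4.83 and 17.3% at DIV3 and 12.9, 14.3 and 14.6% at DIV5, and Itgb8, an integrin, had 0.933, 2.40 and 4.07% at DIV3 and 14.0, 10.4 and 16.1% at DIV5. Mean coverage of Elavl2 and Itgb8 was higher at DIV5 than at DIV3, as it was for Efs and Klf12. It was lower at DIV5 for Plau (4.35% against 5.94% at DIV3), Sh3pxd2b (1.26% against 3.98%) and Apln, so the DIV3 promoters did not share 1 later course.

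The DIV1 promoters differed between DIV3 and DIV1 in the opposite direction. C2cd4b had 0% at DIV3 and 1.63, 14.5 and 17.6% at DIV1, and Slc35c1, the GDP-fucose transporter, had 0% and 3.10, 18.2 and 11.4%. Npb, the neuropeptide B precursor, had 0% at DIV3 and 6.50, 4.13 and 18.6% at DIV1, and Rbck1, a subunit of the linear ubiquitin ligase, had 0% and 10.8, 3.08 and 3.33%. All 4 were at 0% in all 6 later libraries. Tmem210 had 0% at DIV3 and 11, 18.4 and 4.97% at DIV1, with peaks in 3 later libraries. Efnb2, an ephrin ligand of axon guidance, had 0% at DIV3 and 7.08, 5.73 and 6.88% at DIV1, and missed the threshold with all peaks (limma adjusted p = 0.0541).

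Later days, which the choice of these promoters did not use, separated the 2 sets. Of the 29 DIV3 promoters, 2 had no peak in any of the 6 DIV5 and DIV7 libraries (6.90%), 11 had one in all 3 DIV5 libraries and 8 in all 3 DIV7 libraries. Of the 49 DIV1 promoters, 33 had no later peak (67.3%), and none had one in all 3 libraries of either later day. Promoters with the same total of 3 marked libraries split over both days lay between them. Those with 2 DIV3 and 1 DIV1 libraries lacked a later peak in 15.4% of 240, those with 1 DIV3 and 2 DIV1 libraries in 32.8% of 317, and promoters marked in all 6 libraries in 1.33% of 905. The later lists were not the longer ones, at 2.37 to 4 Mb for DIV5 and 1.19 to 2.25 Mb for DIV7, and the part of list length in these shares was not tested. The values are a description, since promoters are not replicates of a day.

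**Figure D4:**
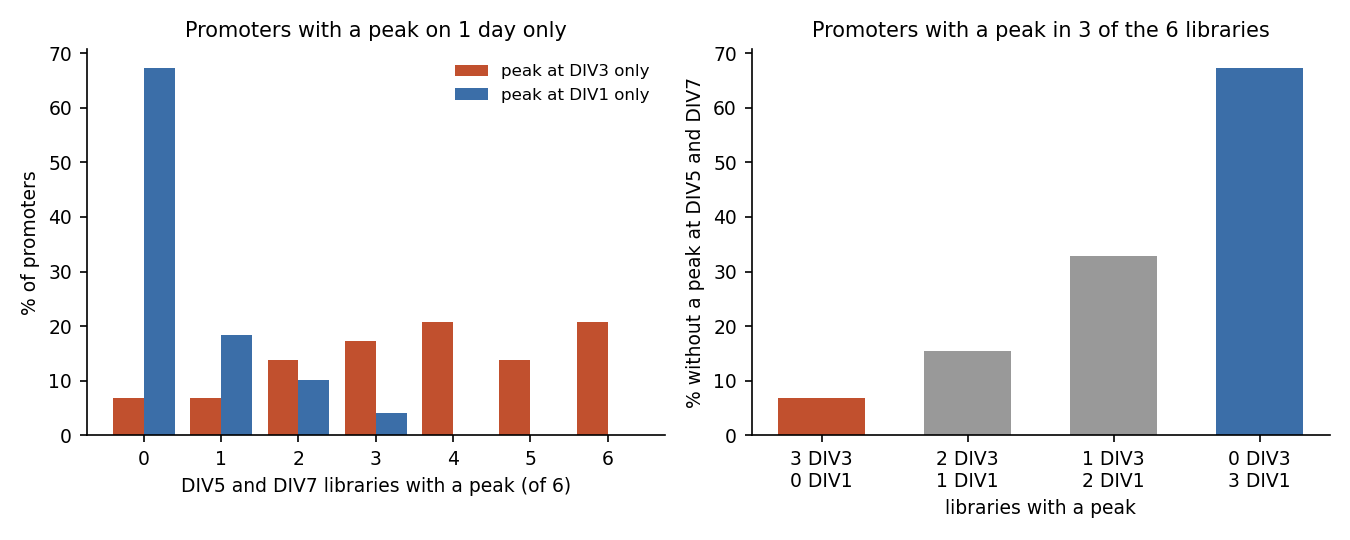
Left, % of the 29 promoters with peaks at DIV3 alone and of the 49 with peaks at DIV1 alone by the number of DIV5 and DIV7 libraries with a peak (0 to 6); right, % of promoters without any DIV5 or DIV7 peak by how their 3 marked libraries divide between DIV3 and DIV1. The share without a later peak is 6.90% for peaks in 3 DIV3 libraries, 15.4% and 32.8% for the divided sets and 67.3% for peaks in 3 DIV1 libraries.

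Promoters whose groups did not overlap were followed to the later days in the same way. With all peaks, of the promoters with DIV3 below DIV1, 96.6% were nearer the DIV3 than the DIV1 mean at DIV5 and 100% at DIV7. Of the 68 with DIV3 above, 48 were nearer DIV3 at DIV5 and 24 at DIV7. At equal length these numbers were 38 and 38 of 49 below, and 27 and 26 of 48 above. Coverage that was lower at DIV3 was mostly low on both later days in either list. Coverage that was higher at DIV3 was nearer its DIV3 mean at DIV7 for 35.3% of the promoters with all peaks. The DIV7 lists covered 1.19 to 2.25 Mb with all peaks, less than the mean of DIV3 or DIV1. The part of list length in these shares was not tested.

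Position within promoters also differed, a pattern seen in the profile around 5' ends before it was computed. The share of promoter coverage that lay within 1 kb of the 5' end was 71.0, 71.9 and 75.1% at DIV3 and 62.6, 69.0 and 66.6% at DIV1 at equal length, a difference of 6.60 points between means of 72.7% ± 2.14 and 66.1% ± 3.26 (SD, n = 3 each). With all peaks it was 71.0, 67.5 and 66.7% at DIV3 and 62.0, 63.4 and 61.8% at DIV1, a difference of 6.02 points. Every DIV3 library was above every DIV1 library in both lists. The exact two-sided permutation p was 0.1 for each, the smallest that 3 against 3 libraries allow, and this measure was not among the 15 counted above.

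**Figure D5:**
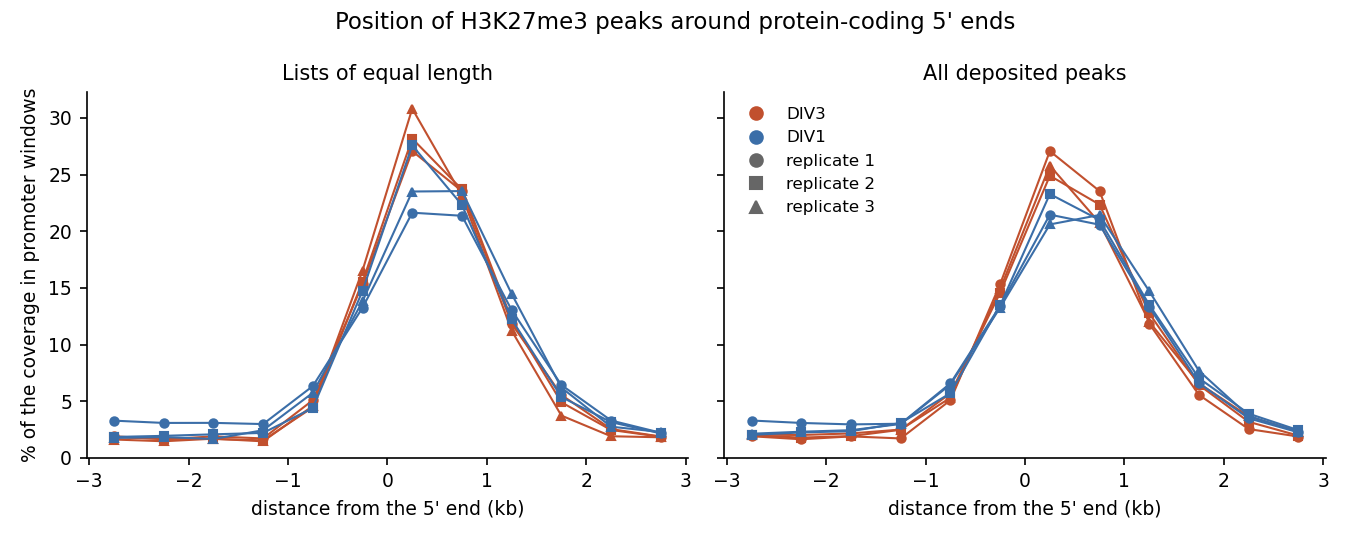
Share of the coverage in promoter windows, in %, by distance from the protein-coding 5' end in kb (500 bp steps), for each DIV3 and DIV1 library at equal length (left) and with all peaks (right). Coverage is highest just downstream of the 5' end on both days, and the share within 1 kb is 66.7 to 75.1% in DIV3 libraries over both panels and 61.8 to 69.0% in DIV1 libraries.

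Promoters of the culture's known programmes were followed in 22 lists, of which no member was called in either direction, at equal length or with all peaks. This depends on who is listed. Frzb, the called antagonist of Wnt ligands, is not on the Wnt pathway list. The bin called at Rybp was not counted, since the lists score promoters. Of 15 granule neuron precursor genes 6 had a peak in any DIV3 library and 6 in any DIV1 library, and on each day 1 had one in all 3. Atoh1, the transcription factor that defines precursors, had 0, 2.92 and 5.77% at DIV3 and 0, 6.47 and 0% at DIV1 with all peaks, and Mycn had no peak in any of the 6 libraries. Myc, a driver of proliferation, had 2.27, 18.9 and 22.2% at DIV3 and 0, 5.80 and 6.73% at DIV1. The highest Myc values were at DIV3, but the ranges overlapped. In the hedgehog pathway, which drives precursor division, 8 of 18 promoters had a peak in any DIV3 library and 5 in any DIV1 library, and 3 against 0 had one in all 3 libraries. These 3 were Gli3, Evc and Evc2, each without a peak only in DIV1 replicate 1, the shortest DIV1 list. Evc and Evc2 have overlapping windows with the same values. Over all promoters, 362 had a peak in 3 DIV3 and 2 DIV1 libraries, and 324 in 2 DIV3 and 3 DIV1 libraries. Gli3, its transcriptional repressor, had 3.37, 9.92 and 26.2% at DIV3 and 0, 11.3 and 7.55% at DIV1, and Gli2, an activator, had 6.92% in DIV3 replicate 3 and 0% in the other 5. The 8 hedgehog promoters tested with all peaks had a median change of 2.29 points, beside 0 over all 3584 promoters. Nfib, a factor of CGN maturation, had 2.57% in DIV3 replicate 3 and 0% elsewhere in the 6 libraries.

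Receptors and channels of mature neurons did not move together. Of 26 glutamate receptor genes 14 had a peak at DIV3 and 15 at DIV1. Grin2b, the NMDA receptor subunit of young neurons, had 0% at DIV3 and 2.60, 8.22 and 2.92% at DIV1 (limma adjusted p = 0.577). Grin2c, the subunit that CGNs take up as they mature, had 4.80, 7.60 and 16.5% at DIV3 and 0, 6.55 and 6.05% at DIV1. These subunits differed in direction, and neither passed the test. Gabrd, the delta subunit of extrasynaptic GABA-A receptors, had 0, 5.32 and 13.2% at DIV3 and 0, 17.8 and 15.8% at DIV1, and Grm4, Gabra6, Slc17a6, Olfm3, Ebf3 and Tubb5 had no peak. Among channels, Cacnb4, an auxiliary calcium channel subunit, had 2.82, 0 and 2.05% at DIV3 and 3.62, 17.1 and 15.3% at DIV1, without overlap (0.399). Kcnh1, a potassium channel, had 0% at DIV3 and 1.77, 4.85 and 1.77% at DIV1. Kcns1, a modifier of potassium channels, differed in the other direction, with 1.82, 5.67 and 10.7% at DIV3 and 0, 0 and 1.6% at DIV1. Over the 27 potassium channel promoters tested, 13 had a higher and 14 a lower mean at DIV3.

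Guidance, adhesion and matrix genes held members that stood apart in each direction. Ntng1, a netrin-related membrane ligand, had 3.43, 14.2 and 15.8% at DIV3 and 0% at DIV1 (limma adjusted p = 0.385). Ntn1, netrin-1 itself, had 9.97, 8.33 and 20% at DIV3 and 0, 7.48 and 4.82% at DIV1 (0.868), and Lama1, a laminin chain, had 8.75, 17.8 and 27.8% at DIV3 and 4.23, 8.47 and 0% at DIV1 (0.476). These 3 were higher at DIV3 without overlap, beside the lower Efnb2 described above, where 1.9% of all promoters tested with all peaks stood above and 3.24% below without overlap. Col12a1, a fibril-associated collagen, had 4.20, 0 and 0% at DIV3 and 12.8, 18.9 and 27.8% at DIV1 at equal length (0.0551), and overlapped with all peaks. Of 27 axon guidance promoters tested with all peaks 11 had a higher and 16 a lower mean at DIV3, with a median change of -1.87 points. Of 27 collagen and laminin promoters the numbers were also 11 and 16, with a median of -0.55.

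The Wnt pathway list gave medians of opposite sign at equal length and with all peaks, over different sets of tested promoters. Of 12 Wnt pathway promoters tested at equal length, 10 had a higher and 2 a lower mean at DIV3, with a median change of 2.58 points, whereas of 20 tested with all peaks 8 were higher and 12 lower, with a median of -0.76. Wnt2, a secreted ligand, had 9.13, 4.35 and 8.83% at DIV3 and 0, 0 and 4.25% at DIV1 at equal length, and 9.13, 11.2 and 19.7% at DIV3 and 8.57, 23.2 and 10.1% at DIV1 with all peaks. The separation of Wnt2 was thus a matter of the list used. Wnt7a, which CGNs release to remodel mossy fibre terminals, had 3.50% in DIV3 replicate 3 and 2.38 and 2.83% in DIV1 replicates 2 and 3. Jag1, a Notch ligand, had 5.17, 18.4 and 28.1% at DIV3 and 7.07, 24.5 and 15.8% at DIV1, which overlap. Hes7, a transcriptional repressor of the Notch pathway, had 0% at DIV3 and 2.02, 6.22 and 5.32% at DIV1 (0.433), and it was at 0% on the later days.

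Genes of the Polycomb system itself included 2 that were lower without overlap with all peaks, as were 3.24% of all promoters tested. Cbx2, the PRC1 subunit that reads the mark, had 0% at DIV3 and 6.58, 13.3 and 10.8% at DIV1 (limma adjusted p = 0.0559), and Bmi1, another PRC1 subunit, had 5.08, 0 and 0% at DIV3 and 6.68, 10.8 and 10.9% at DIV1 (0.389). Neither passed the threshold. Phf19, a PRC2 cofactor, had 1.95, 12.3 and 13.9% at DIV3 and 0, 13.3 and 3.68% at DIV1. Of the 22 genes of this list 4 had a peak in any DIV3 library and 4 in any DIV1 library, and these were not the same genes, since Cbx2 had peaks at DIV1 only. With all peaks 4 were tested, of which 3 had a lower mean at DIV3. Ribosomal protein genes, normally without the mark, had a peak at 4 of 49 promoters on each day. Hox genes, normally with it, had a peak at 10 of 39 on DIV3 and 2 of 39 on DIV1, with none in all 3 libraries of a day. At DIV1 the share of Hox genes was thus below that of ribosomal protein genes, so these lists did not separate the groups there. Of all 21938 promoters, 5229 had a peak in any of the 6 libraries. That count spans both days and is larger than the count for 1 day, to which the list counts refer. The highest share of all promoters in a single library was 17.5% at DIV3 and 16.4% at DIV1. Of glial genes, Mbp, the myelin basic protein, had 2.78, 0.85 and 2.15% at DIV3 and 0% at DIV1, whereas Pdgfra, a receptor of oligodendrocyte precursors, had 0, 0 and 2.18% at DIV3 and 3.32, 11.5 and 4.27% at DIV1, and Sox10, their transcription factor, had 0, 0 and 0.90% at DIV3 and 2.82, 0.933 and 3.18% at DIV1. Glial markers therefore differed in both directions between the days, each by a few percent of the window, and none was called.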

How the data were processed

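The authors trimmed reads with Trimmomatic 0.38, inspected them with FastQC, aligned them to mm10 with STAR 2.7.2b and called broad peaks per library with MACS2 2.1. The control used in peak calling is not given in the sources used here. The authors' test, DESeq2 1.36.0 on read counts, was not repeated, since peak lists hold no counts. Each deposited list gives a fold enrichment (a ratio over local background), a −log10 p-value and a −log10 q-value per peak, and the deposited score was not used.

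Coverage was computed over promoters (GENCODE, 3 kb each side) and 10 kb bins, with all peaks and at equal length, the lists being cut by −log10 p to 1.11 Mb. Features covered in at least 3 of the 12 time course libraries entered a limma 3.58.1 fit (R 4.3.3; lmFit and eBayes with the robust option) whose two-sided contrast was DIV3 minus DIV1, adjusted by Benjamini-Hochberg at 0.05. Limma was checked on simulated coverage with normal noise around the promoter means. That simulation did not model promoters that lack coverage on whole days, as the called ones often do. Whole-library measures used exact permutation tests. Python 3.11.15, numpy 2.4.6, scipy 1.17.1 and matplotlib 3.10.9 were used otherwise. Since the lists hold no reads, the precision is that of 3 cultures a day.

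Named genes were the called promoters and bins, the 6 promoters per day with the largest difference at equal length among those peaked on that day alone, the study's example genes, and up to 3 members per gene list. A few items that fall under this rule are not reported here. Other genes were chosen after their values were seen. The comparison and the lists were chosen with earlier results of these data known. Alternatives were ranking by fold enrichment, peaks with −log10 q from 2 upwards, 1 kb windows, 5 kb bins, coverage in at least 1 library, eBayes without robust, the 6 libraries alone, a replicate block, replicates 2 and 3 alone, a peak overlap of 150 bp, and leaving out each library. The share within 1 kb was added after the data were seen.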

Additional observations from a re-analysis of the deposited data

How the results depend on the processing

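Numbers of called features are given as gained and lost. At equal length promoters gave 1 and 5. These were 0 and 0 with a −log10 q of at least 2, with 1 kb windows, with the 6 libraries alone and with the replicate block. They were 0 and 4 when ranked by fold enrichment, with 0 of the 4 among the 5 above, 8 lost by eBayes without robust, 9 gained without DIV3 replicate 1 at a recomputed common length of 1.19 Mb, and 0 and 3 within replicates 2 and 3. Leaving out 1 library gave 0 to 7 gained and 0 to 8 lost. With all peaks promoters gave 1 and 7, against 0 and 0 with a −log10 q of at least 2, with the 6 libraries alone, with the replicate block and within replicates 2 and 3, and 0 to 4 and 0 to 63 without 1 library. Bins at equal length gave 1 and 6, against 0 and 0 with the 6 libraries alone, 1 and 2 with the replicate block, and 0 to 9 and 2 to 27 without 1 library. Bins with all peaks gave 0 and 7, against 0 lost with the 6 libraries alone and 6 lost with the replicate block, and 0 to 11 and 1 to 124 without 1 library.

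Promoters marked at DIV1 alone numbered 32 when 150 bp had to be covered, and 1 with a −log10 q of at least 2, where 3 were marked at DIV3 alone. Without 1 library the DIV3 minus DIV1 difference lay between -1.28 and 1.45 Mb for covered length and between -3.32 and 2.30 points for the share in promoters.

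Of 224 retested values of the called promoters and bins, 94 were still called, 130 were not and 0 changed sign. Same-numbered cultures deviated together by r = 0.157, 0.039 and 0.076 over promoters at equal length. Each DIV3 library correlated highest with its own number at equal length but not with all peaks, which is a hint from the data and no pairing in the design. With 6 libraries instead of 12, fewer residual degrees of freedom remain by construction. For the other settings the cause was not tested. The width of single-promoter intervals and weak peaks, most of them under a −log10 q of 2, limit what these lists can resolve.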
